A study of Mus musculus with 4 samples.

Results

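The genes described here encode the proteins of the cytosolic ribosome in mouse tumour samples profiled by droplet single-cell RNA sequencing. They were chosen by name alone: symbols of Rpl or Rps followed by a digit, with Rplp0, Rplp1, Rplp2 and Rpsa, and without the Rps6k kinases. The rule found 93 genes among the 26172 listed over both libraries. Of these, 77 are canonical ribosomal protein genes, 46 of the large subunit and 31 of the small subunit. The other members are 11 paralogs or retrogenes, 4 symbols that carry a pseudogene suffix, and Rps19bp1, which binds Rps19 and is not itself a ribosomal protein. Fau, which encodes a ribosomal protein as a fusion, does not match the name rule and is not a member.

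Mice of 10 weeks, either wild-type or FOXP3 humanized, carried tumours grown from inoculated MC38 cells, a mouse colon carcinoma line, and received no treatment. Tumours were taken on day 20, and tumour-infiltrating immune cells were enriched on a Percoll gradient before droplet capture. How the FOXP3 allele was humanized, and how many mice entered a library, are not given in the labels. The series has 4 samples. The 2 cDNA libraries, 1 per genotype, hold the expression counts used here, and the 2 oligo libraries were left out. With 1 library per genotype no test between genotypes was possible, and genotype, mouse and library cannot be told apart. All intervals given are exact 95% intervals that cover counting error only.

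Ribosomal proteins are made in near-equal numbers and assembled with ribosomal RNA into a large and a small subunit. Their mRNAs are among the most abundant in most cells, and many begin with a C followed by a run of pyrimidines, the 5′ terminal oligopyrimidine (TOP) motif, through which the mTOR pathway controls their translation. Resting T cells are known for low protein synthesis, which increases when they are activated, and dividing tumour cells are known for high ribosome production.

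The wild-type library held 7691 barcodes and the humanized library 11087. Deep barcodes had 5000 or more unique molecular identifiers (UMIs, each counting 1 captured mRNA molecule) and no UMI of Cd3e, Cd3d, Cd3g or Ptprc. The wild-type library had 6705 of them and the humanized library 9671, with medians of 16866 and 12522 UMIs. T barcodes had under 5000 UMIs and at least 1 UMI of Cd3e, Cd3d or Cd3g, the genes of the CD3 complex, and numbered 96 and 155, with medians of 1700.5 and 1587 UMIs. Barcodes under 5000 UMIs without CD3 or Ptprc, called shallow below, numbered 770 and 1030 and served as a comparison at low depth. The summed T barcodes held 185429 and 279949 UMIs against 129144384 and 140575771 in the deep barcodes, so T values carry nearly all of the counting error.

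The class names were checked against marker genes. A list of 18 T cell genes summed to 10263 and 10038 CPM (UMIs of a gene scaled to a total of 1000000) in the T barcodes of the wild-type and humanized libraries, and to 3.37 and 3.60 CPM in the deep barcodes. The list includes the CD3 genes and Ptprc, by which the classes were made, so part of this contrast was fixed in advance. Outside the rule, Trbc2 was at 1348 and 1097 CPM in T and 0.294 and 0.299 CPM in deep barcodes. Cd8a was at 0 and 3.57 CPM in T barcodes. The labels call all samples immune cells, whereas the deep barcodes lack Ptprc by the rule. The MC38 list (epithelial keratins with Apobec1 and Adam2) summed to 360 CPM in the wild-type and 126 CPM in the humanized deep barcodes, nearly all of it from Apobec1 and Adam2, and Krt8 or Krt18 was seen in 48 and 39 of these barcodes. In T barcodes this list gave 16 and 7 UMIs, 86.3 and 25.0 CPM, with Krt8, Krt18, Krt7, Krt19 and Cdh1 at 0. Fibroblast genes summed to 21.6 and 53.6 CPM in T and 164 and 199.98 CPM in deep barcodes. Myeloid genes summed to 5.39 and 32.1 CPM in T and 8.42 and 8.66 CPM in deep barcodes, and B cell genes to 0 in T barcodes. The endothelial genes Pecam1 and Cdh5 summed to 135 and 53.6 CPM in T and 1.31 and 1.18 CPM in deep barcodes, with Cdh5 at 0 in T barcodes. Of the barcode sequences, 1551 occurred in both libraries, 20.2% of the wild-type and 14.0% of the humanized ones, and no shared barcode had identical counts.

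The RefSeq transcription starts of some members are shown here because the pyrimidine start is the feature these mRNAs are known for, and because the comparison of T with deep barcodes further on counts members by it. Each window runs from 15 bases before the start to 15 bases from it, in build GRCm38.p6, which is not the build the submitters' processing notes name. Capitals mark the unbroken run of C and T from a starting C with at least 4 pyrimidines after it, or the start base alone where there is no such run. The first 3, Rps6 (chr4:86857353-86857382, minus strand), Rps18 (chr17:33955651-33955680, minus strand) and Rpl35 (chr2:39005117-39005146, minus strand), were lower in T than in deep barcodes in both libraries.
Rps6: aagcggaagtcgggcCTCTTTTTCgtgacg
Rps18: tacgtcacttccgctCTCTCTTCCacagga
Rpl35: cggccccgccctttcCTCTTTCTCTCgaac
Rps15a (chr7:118116133-118116162, minus strand), also with such a run, had positive log2 ratios of T over deep (0.53 and 0.59).
Rps15a: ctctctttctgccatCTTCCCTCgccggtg
The annotated starts of Rps13 (chr7:116334176-116334205, minus strand) and Rpl13a (chr7:45128731-45128760, minus strand), the members highest in T relative to deep barcodes, and of Rpl31 (chr1:39367836-39367865, plus strand), the lowest canonical member, have no such run from the start base.
Rps13: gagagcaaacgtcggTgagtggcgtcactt
Rpl13a: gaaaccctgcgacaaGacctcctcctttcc
Rpl31: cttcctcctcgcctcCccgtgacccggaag
RefSeq gave 67 starts for 57 of the 77 canonical members. A C followed by at least 4 pyrimidines, read on the transcribed strand, opened 13 of the 67 starts (19.4%), against 823 of all 32851 starts given (2.505%). A run of 5 or more pyrimidines lay within 10 bases of the start in 37 of the 67 (55.2%), against 35.8% of all starts. An annotated start can lie some bases from the one used in these cells, so no match says only that no such run begins at that base. Rpl13a and Rpl31, without a match, have runs of 9 and 7 pyrimidines within 10 bases of the annotated start.

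Ribosomal protein genes gave from 25.3% to 35.0% of the UMIs of a class, and the share was lowest in T barcodes. In the wild-type library they made up 25.3% (25.1 to 25.5) of T UMIs, 33.0% of deep UMIs and 30.2% of shallow UMIs. In the humanized library the shares were 29.3% (29.2 to 29.5), 35.0% and 29.7%. The T minus deep difference was -7.70 percentage points in the wild-type library (log2 ratio -0.38, -0.40 to -0.37) and -5.70 points in the humanized library (-0.26, -0.27 to -0.25). Against shallow barcodes, closer to T barcodes in depth, the log2 ratio was -0.25 (-0.27 to -0.24) in the wild-type library and -0.018 (-0.029 to -0.0081) in the humanized library. The humanized value depended on the depth limit between T and deep barcodes: at 10000 UMIs in place of 5000, T over deep was -0.023, and -0.20 in the wild-type library. By medians per barcode, humanized T barcodes were at 27.4% and shallow ones at 29.4%.

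Single barcodes varied widely within each class, and the classes overlapped. Wild-type T barcodes ran from 12.9% to 43.1% with a median of 24.9%, and deep barcodes from 14.5% to 66.5% with a median of 32.8%. Humanized T barcodes ran from 12.4% to 52.1% (median 27.4%) and deep barcodes from 10.4% to 70.1% (median 34.8%). Shares above 50% were found in 76 wild-type (1.13%) and 279 humanized (2.88%) deep barcodes, and in 0 and 2 T barcodes. Other measures moved with the classes. Malat1, a nuclear noncoding RNA, was at 3549 and 2822 CPM in T barcodes of the wild-type and humanized libraries and at 410 and 283 CPM in deep barcodes. Mitochondrial genes made up 0.268% and 0.186% of T UMIs and 0.210% and 0.159% of deep UMIs. Their part in the lower T share, and that of free RNA in the droplets, was not tested.

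**Figure D1:**
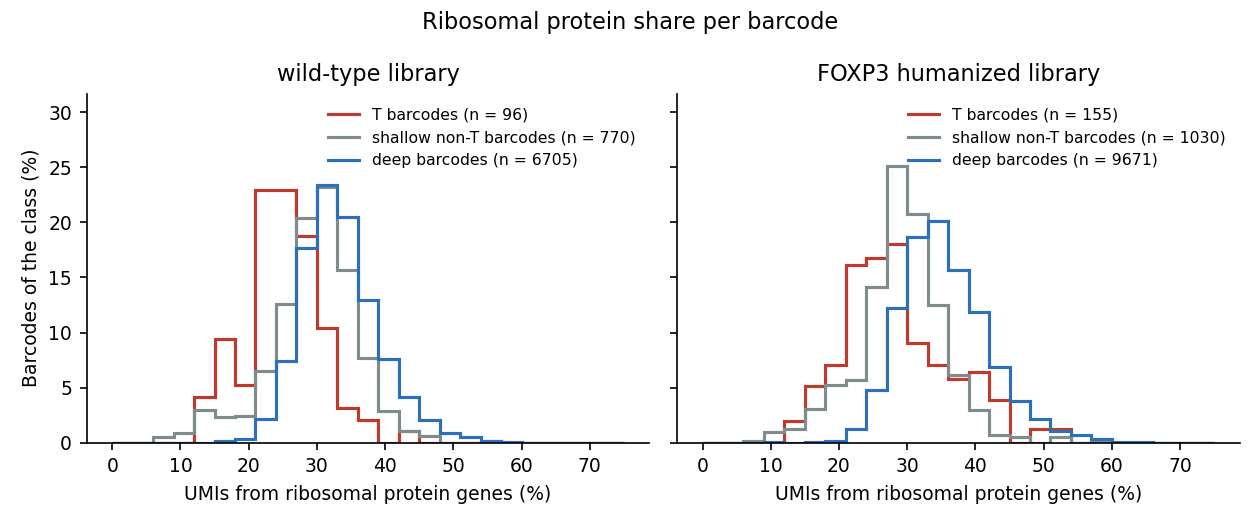
Share of UMIs from the 93 ribosomal protein genes in each barcode (x axis, %) against the percentage of barcodes of the class (y axis), for wild-type (left) and FOXP3 humanized (right), by class. The T curves lie to the left of the deep curves, with medians of 24.9% and 27.4% against 32.8% and 34.8%, and the curves overlap.

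The share did not move in 1 direction with depth. Among shallow barcodes it was lower at 1000 to under 2000 UMIs (27.5% wild-type, 26.9% humanized) than at 2000 to under 5000 UMIs (30.8% and 30.1%). Among deep barcodes it was highest at 5000 to under 10000 UMIs, 35.0% and 37.0%, lowest at 20000 to under 40000 UMIs, 32.3% and 34.1%, and slightly higher again at 40000 or more, 32.6% and 34.2%. At matched depth the wild-type T barcodes stayed below the shallow ones, with 24.5% in 60 barcodes at 1000 to under 2000 UMIs and 26.1% in 36 barcodes at 2000 to under 5000 UMIs. In the humanized library the summed T shares, 28.5% in 112 barcodes and 30.4% in 43 barcodes, were at or above the shallow ones. The medians per barcode differed from those sums: 27.6% for T and 27.5% for shallow at 1000 to under 2000 UMIs, and 26.4% for T and 29.9% for shallow at 2000 to under 5000 UMIs.

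**Figure D2:**
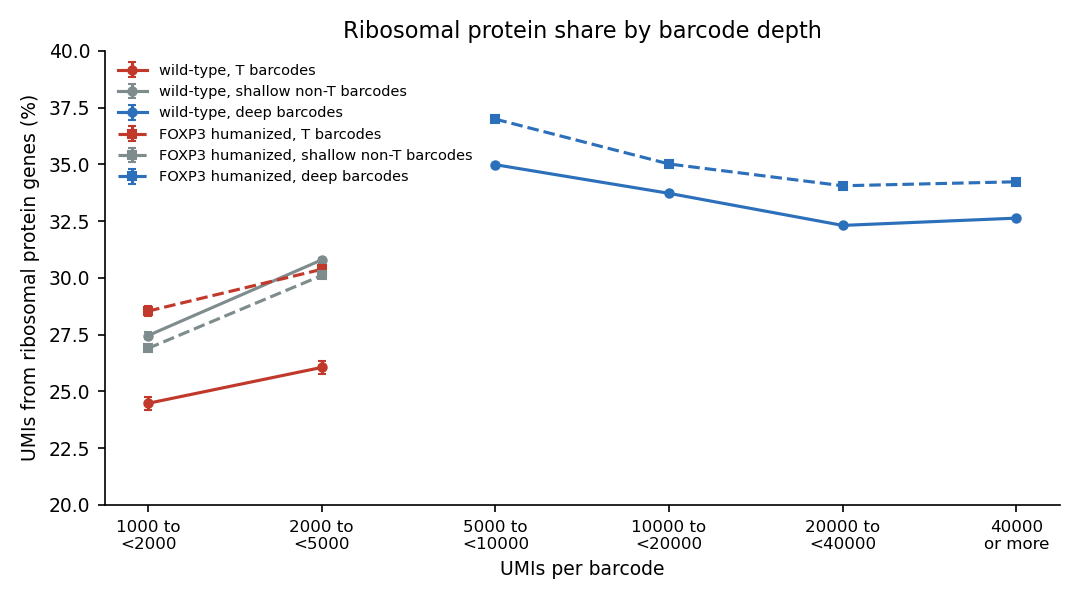
Share of UMIs from ribosomal protein genes (y axis, %) by depth range of the barcodes (x axis, UMIs per barcode), for T, shallow and deep barcodes of each library; error bars are exact 95% counting intervals. Deep values are highest at 5000 to under 10000 UMIs (35.0% and 37.0%) and lowest at 20000 to under 40000 UMIs (32.3% and 34.1%), and among these summed shares only the wild-type T values lie below the shallow ones at the same depth.

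Within T barcodes the share differed by the markers they carried. In the wild-type library the 18 barcodes with a UMI of Foxp3, the transcription factor of regulatory T cells, had 18.9% (18.4 to 19.3) against 26.8% in the 78 without. In the humanized library the 10 with a Foxp3 UMI had 27.4% against 29.4% in the other 145. How transcripts of the humanized allele were mapped is not stated in the labels, so Foxp3 counts of the libraries cannot be compared. Barcodes with Gzmb or Nkg7, genes of cytotoxic cells, had 23.5% against 26.8% without in the wild-type library and 28.7% against 29.6% in the humanized library. These splits are of barcodes within 1 library, were added after the data were seen and have no replicate check.

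Gene by gene, the lower T share came from some members and not others. A member was counted as called where its CPM differed at least 1.5-fold and the 95% interval of the ratio excluded equality, with at least 100 UMIs over both sums. The sums for T and deep barcodes together gave 89 members with that many. In the wild-type library 31 of the 89 were lower and 3 higher in T barcodes, where 9.01% of all 100-UMI genes were lower and 14.7% higher. In the humanized library 25 were lower and 4 higher, against 11.1% and 17.3% of all genes. With a depth limit of 10000 UMIs 10 and 3 members were lower, and centred on the median of all genes tested 66 and 54. That background holds many genes too rare to be called lower in so few T UMIs. Among genes with at least 20 UMIs expected in the smaller sum, a filter added after the data were seen, 45.5% were lower and 11.5% higher in the wild-type library and 41.9% and 10% in the humanized library. By the same filter 31 of 85 members (36.5%) and 25 of 86 (29.1%) were lower. The members' share of lower calls was thus above the first background and below the second. Nearly all UMIs in the 2 sums are deep, so the second filter selects genes by their deep level, which favours lower calls. Neither background is free of such selection. With a lower limit of the fold, a log2 difference of 0.32, 49 and 43 members were lower (9.89% and 12.2% of all 100-UMI genes) and 8 and 8 higher (15% and 17.8%). Against shallow barcodes 21 and 9 of 86 members were lower and 4 and 8 higher, where 30.7% and 32.8% of all genes were lower and 15.7% and 14.9% higher. The canonical median of T over deep was -0.41 and -0.32, beside -0.53 and -0.47 over all genes with 20 UMIs expected, and 60 and 55 of the 77 lay below 0.

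The libraries, which share no sample in this comparison, gave like values: across the 77 canonical genes the log2 ratios of T over deep had a Pearson r of 0.97, as a description, and over 1161 genes with 20 UMIs expected in both r was 0.88. In both libraries 24 members were called lower, 21 of them canonical, 2 were called higher, and 0 were called in opposite directions. Of the 1161 genes with 20 UMIs expected, 442 were called lower and 91 higher in both, so the 24 of 89 members are not a larger share. The large subunit genes were at -0.41 and -0.30 as a sum, with 17 and 13 called lower and 1 and 1 higher. The small subunit genes were at -0.36 and -0.20, with 11 and 8 lower and 2 and 2 higher. The ratio of large to small subunit UMIs was 1.27 and 1.26 in T barcodes and 1.31 and 1.35 in deep barcodes.

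Rps13 and Rpl13a stood highest in T barcodes. Rps13, a small subunit protein, was at 3349 CPM in T and 1828 CPM in deep barcodes of the wild-type library and at 3986 and 2182 CPM in the humanized library. The T value exceeded the deep value in both libraries, with log2 ratios of 0.87 (0.76 to 0.99) and 0.87 (0.78 to 0.95). Rpl13a, a large subunit protein also known from the interferon-gamma-activated inhibitor of translation (GAIT) complex, was at 5371 against 3116 CPM and at 5544 against 3559 CPM, log2 ratios of 0.79 and 0.64. Rps15a (0.53 and 0.59), of the small subunit, was called in the humanized library only. Rps14, whose gene lies in the region lost in human 5q- syndrome, was at 6331 against 4655 CPM and 7076 against 5381 CPM, log2 ratios of 0.44 and 0.40 that did not reach the fold limit. Against shallow barcodes the order at this end was alike, with Rps13 at 1.11 and 1.12, Rpl13a at 0.93 and 0.83 and Rps15a at 0.62 and 0.95. The retrogene Rpl27rt also ranked among the 5 highest, but on 2 and 5 T UMIs.

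At the other end were Rpl31, Rpl23a and Rps2, among others. Rpl31, a large subunit protein at the exit tunnel, was at 998 CPM in T and 2435 CPM in deep barcodes of the wild-type library, and at 1064 and 2059 CPM in the humanized library. Both T values were well below the deep ones, with log2 ratios of -1.29 (-1.50 to -1.08) and -0.95 (-1.12 to -0.79). Rpl23a, the exit-tunnel protein that docks the signal recognition particle, was at 1391 against 2959 CPM and 1811 against 3635 CPM (-1.09 and -1.005). Rps2, among the members with most UMIs in deep barcodes, was at 4061 against 9417 CPM and 5787 against 10275 CPM (-1.21 and -0.83). Rps6, the substrate of the S6 kinases downstream of mTOR, was at 1699 against 3350 CPM and 1993 against 4072 CPM. Its log2 ratios, -0.98 (-1.14 to -0.82) and -1.03 (-1.15 to -0.91), differed little between the libraries. Rpl10, which joins the large subunit last and is mutated in some T cell leukaemias, was at -0.90 and -0.72, from 2432 against 4554 CPM and 2836 against 4687 CPM. Other canonical genes called lower in both included Rpl12, Rpl14, Rpl15, Rpl23, Rpl26, Rpl28, Rpl35, Rpl35a, Rpl36, Rpl36a, Rps12, Rps15, Rps18 and Rps28. Rps19bp1 ranked lowest of all members (-1.21 and -2.21), on 10 and 6 T UMIs.

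**Figure D3:**
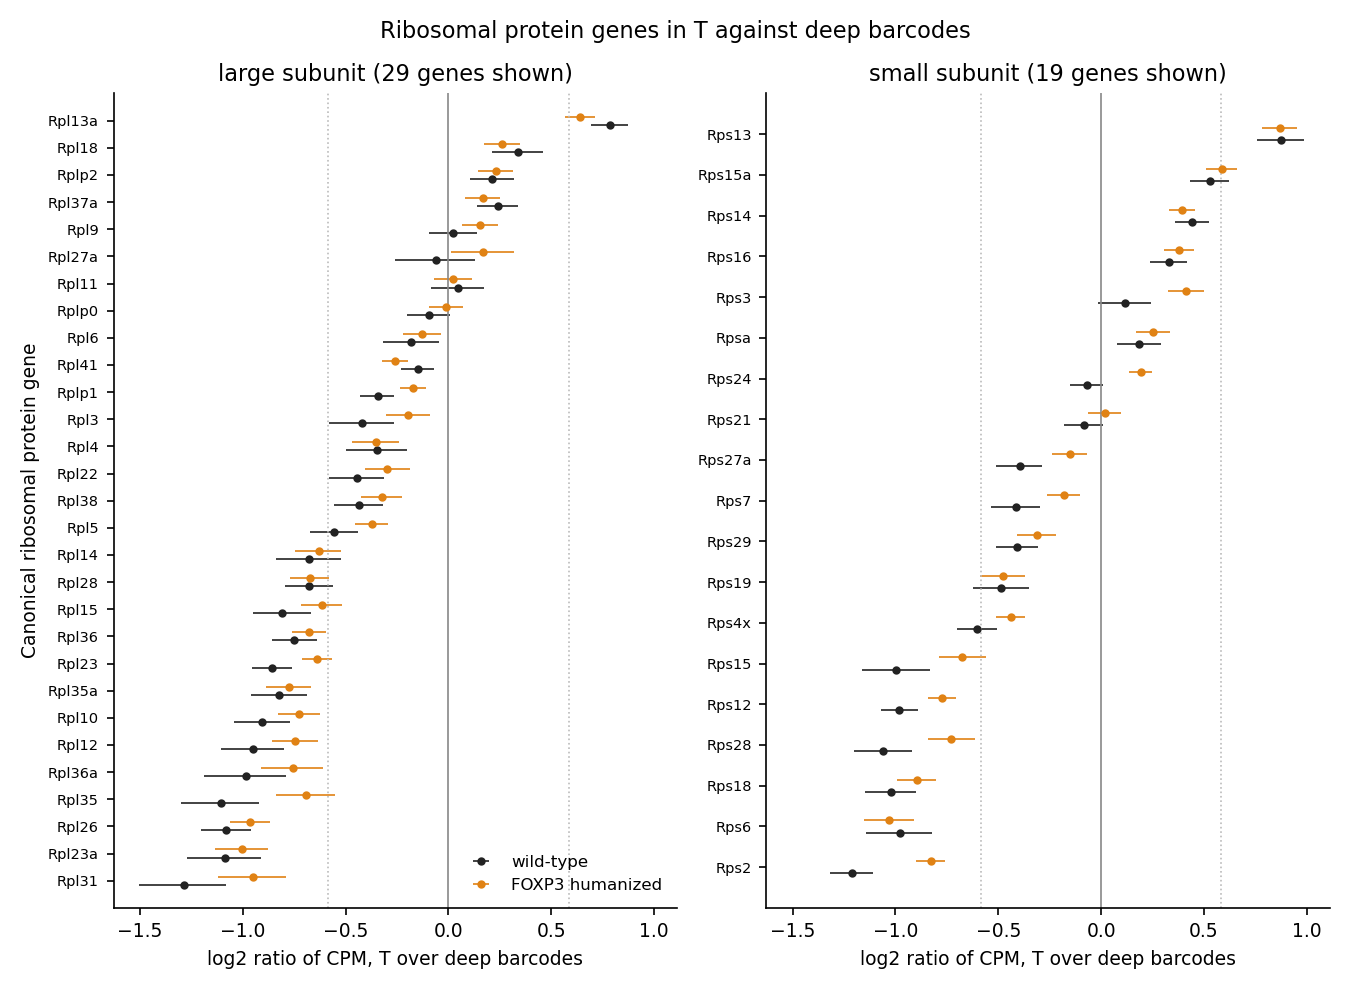
log2 ratio of CPM in T over deep barcodes (x axis) for canonical ribosomal protein genes named in the text (y axis, ordered by the mean of the libraries), large subunit left and small subunit right; points are the wild-type and FOXP3 humanized values, bars 95% counting intervals, and dotted lines mark 1.5-fold. Rps13 (0.87 and 0.87) and Rpl13a (0.79 and 0.64) lie at the top of their panels, and Rpl31 (-1.29 and -0.95) and Rpl23a (-1.09 and -1.005) at the bottom of the large subunit panel.

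Proteins that act together did not share 1 value. In the P-stalk, which recruits the elongation factors, Rplp0 was at log2 ratios of -0.10 and -0.01 in T over deep barcodes, Rplp1 at -0.34 and -0.17, and Rplp2 at 0.21 and 0.23. None of the 3 was called, and in each library Rplp1 and Rplp2 lay on opposite sides of 0. Of the 5S particle, whose free form binds Mdm2, Rpl5 was at 3193 CPM in T against 4691 CPM in deep barcodes and at 4529 against 5862 CPM (-0.56 and -0.37), called in neither library, and Rpl11 was close to equal (2648 against 2562 CPM and 3404 against 3351 CPM, 0.05 and 0.02). Rps27a, made as a fusion with ubiquitin, was at -0.40 and -0.15, and Rpsa, also known as a laminin receptor, at 0.19 and 0.25. Rpl22, which developing alpha-beta T cells depend on, was at -0.44 and -0.30, and Rps19, the commonest Diamond-Blackfan gene, at -0.49 and -0.48. Rpl41, the shortest ribosomal protein, was at -0.15 and -0.26. Rps4x, encoded on the X chromosome, was at -0.60 and -0.44, called lower in the wild-type library only.

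The composition of the ribosomal protein mRNA also differed once the lower total was removed. Scaled to the members' own UMIs, 12 members were higher and 12 lower in T barcodes of the wild-type library, and 8 and 10 in the humanized library. On that scale Rps13 was at 1.26 and 1.13, Rpl13a at 1.17 and 0.90, and Rpl31 at -0.90 and -0.70. Across the 77 canonical genes, UMIs not divided by length, the rank correlation of levels was 0.96 between the libraries in deep barcodes and 0.94 in T barcodes, and 0.72 and 0.74 between T and deep barcodes within a library. Most UMIs in deep barcodes came from Rps12 (10585 and 10346 CPM) and Rps2, and most in T barcodes from Rpl41 (6703 CPM, wild-type) and Rps24 (8623 CPM, humanized). The fewest in deep barcodes came from Rpl27a (1231 and 1130 CPM).

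By the sequences shown above, the starts of genes on either side of this comparison were counted. Of the 21 canonical genes called lower in both libraries, 17 had a RefSeq start, and 7 of their 19 starts (36.84%) opened with a C and at least 4 pyrimidines. The 2 genes called higher, Rps13 and Rpl13a, had 0 such starts. Of 45 genes called in neither library, 32 had a start, and 4 of 39 starts (10.26%) opened that way. A run of 5 or more pyrimidines within 10 bases of the start did not separate the groups. It lay in 10 of 19 starts (52.6%) of genes called lower, 1 of 2 called higher and 22 of 39 (56.4%) called in neither. The groups were chosen by the ratios themselves, so these are counts and not a test. Other mRNAs known to carry the motif lay nearer 0 as a list: the 21 other TOP genes had a median of -0.11 and -0.12, with 13 and 13 below 0. They ranged from Gas5, a noncoding host gene of small nucleolar RNAs (-1.36 and -1.19), and Npm1, a nucleolar chaperone (-1.25 and -1.17), to Fau (0.60 and 0.56) and the initiation factor gene Eif3f (1.31 and 1.04).

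Genes that build ribosomes were further apart than the ribosomal proteins. With 20 UMIs expected, the number of ribosome biogenesis genes was 13 for wild-type and 21 for humanized. All of these lay below 0, with medians of -1.26 and -1.01, and 12 and 16 were called lower in T barcodes. This filter selects genes largely by their level in deep barcodes, which favours values below 0. With 100 UMIs over both sums, 5 and 4 of 46 genes lay above 0, with medians of -1.21 and -0.96. Under the same filter 45.5% and 41.9% of all genes were lower, with medians of -0.53 and -0.47. Mitochondrial ribosomal protein genes had medians of -0.65 over 22 and -0.60 over 45 genes. Each of these medians was below that of the canonical members.

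Between the 2 libraries the members' share was higher in the humanized library in both classes. The log2 ratio of the total, humanized over wild-type, was 0.085 in deep barcodes and 0.21 (0.20 to 0.23) in T barcodes. In deep barcodes 1 of 89 members was called higher, Rps18-ps4 (0.60), and 0 lower, where 0.634% of all genes were higher and 12.9% lower. The canonical median was 0.11 and that of all genes -0.21, so most other genes sit lower on this scale. In T barcodes 1 of 80 members was called higher, Rpl3 (0.59, 0.40 to 0.78), and 0 lower, against 3.37% and 6.1% of all genes. There the canonical median was 0.20, with 70 of 77 above 0, and that of all genes -0.064. At the limit of 0.32, 7 members were higher and 3 lower in deep barcodes, where 1.8% of all genes were higher and 32.3% lower. In T barcodes 22 were higher and 1 lower, against 9.31% and 15.1%. Deep and T values come from the same 2 libraries and are not independent of each other.

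No canonical member reached 1.5-fold in deep barcodes. The largest positive ratios there belonged to large subunit genes. Rpl6 was at 0.49 in deep and 0.55 in T barcodes, Rpl18 at 0.45 and 0.37, Rpl11 at 0.39 and 0.36, Rpl3, which reaches the peptidyl transferase centre, at 0.36 and 0.59. Rpl5 was at 0.32 and 0.50, its deep value just under the lower limit. Rps3, at the mRNA entry site, was at 0.26 in deep and 0.55 in T barcodes, and Rps2 at 0.13 and 0.51. Negative deep values belonged to Rps29 (-0.46 in deep, -0.37 in T barcodes), a small zinc-binding protein, Rps28 (-0.28 and 0.05), Rpl31 (-0.24 and 0.09), Rps21 (-0.22 and -0.11) and Rpl38 (-0.22 and -0.11). Rpl37a, among the lowest in T barcodes, was at -0.05 in deep and -0.13 in T barcodes.

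These differences varied with the length of the gene's coding sequence. Of the members with negative deep values 4 are short, with longest annotated coding sequences of 56 codons for Rps29, 69 for Rps28, 70 for Rpl38 and 83 for Rps21. The canonical genes with the largest positive deep values are longer, with 296 for Rpl6, 188 for Rpl18, 178 for Rpl11 and 403 for Rpl3. Rpl5 and Rps3, with smaller positive deep values, have 297 and 243. Over the 77 canonical genes the rank correlation of coding length with the humanized over wild-type log2 ratio was 0.60 in deep and 0.54 in T barcodes, given as a description of genes within 1 pair of libraries. The 26 shortest genes had a median of -0.08 in deep barcodes, the middle ones 0.12 and the 26 longest 0.21. In T barcodes the medians were 0.09, 0.23 and 0.29. Exceptions were Rpl41, short and at 0.24, and Rpl4, the longest with 419 codons, at 0.13 in deep barcodes. For T over deep the rank correlation over the canonical genes was 0.07 and 0.04, beside -0.18 and -0.10 over all genes with a length. For humanized over wild-type it was 0.12 over all genes in T barcodes. In deep barcodes it was -0.17 over 12235 genes, opposite in sign to the members' value. Only 78.9% of the genes tested had a length, so that value covers those genes alone. The comparison by length was added after the data were seen, and what part library preparation has in it was not tested.

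**Figure D4:**
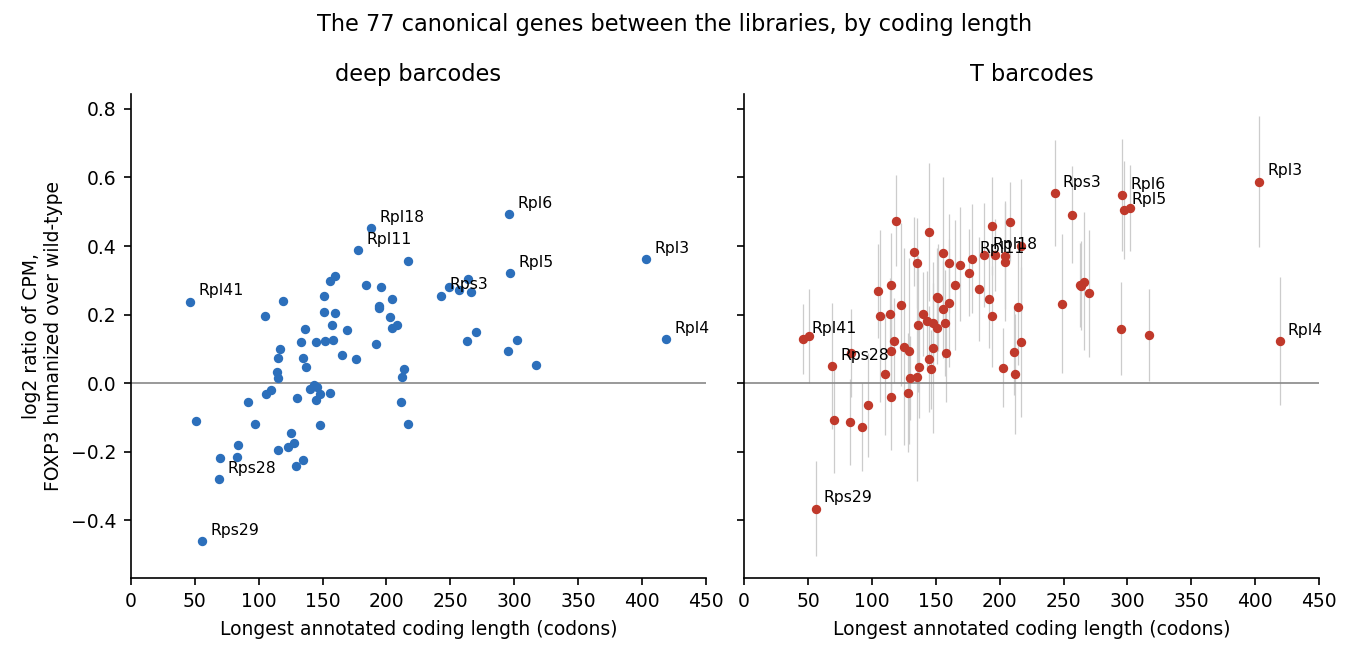
log2 ratio of CPM, FOXP3 humanized over wild-type (y axis), against the longest annotated coding length in codons (x axis) for the 77 canonical genes, in deep (left) and T (right) barcodes, with 95% counting intervals. Short genes such as Rps29 (-0.46 and -0.37) lie low and Rpl6 (0.49 and 0.55) and Rpl3 (0.36 and 0.59) high, in both classes of the same 2 libraries.

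Among deep barcodes the members took a smaller share at greater depth. Barcodes of 20000 or more UMIs compared with those of 5000 to under 10000 UMIs had log2 ratios of the total of -0.11 (wild-type) and -0.12 (humanized). Of 89 members 0 were called higher or lower in either library, where 5.66% and 5.06% of all genes were higher and 1.98% and 1.37% lower. At the limit of 0.32, 1 member was lower in the wild-type library, Rpl9-ps6 (-0.36), and 0 in the humanized library, against 4.79% and 4.09% of all genes, and 0 were higher, against 16.3% and 17.8%. The canonical medians were -0.10 and -0.11, with 70 and 67 of 77 below 0, beside 0.11 and 0.11 over all genes. Lowest among canonical genes were Rpl9 (-0.29 and -0.30), Rps24 (-0.28 and -0.29), Rps16 (-0.26 and -0.29) and Rps7 (-0.25 and -0.30), and highest Rpl41 (0.12 and 0.14) and Rps6 (0.10 and 0.11). The paralogs Rpl7l1 (0.26 and 0.21) and Rps27l (0.23 and 0.20) lay above all canonical genes. Ribosome biogenesis genes lay on the other side of 0, with medians of 0.29 and 0.30 over 46 genes, 43 and 45 of them above 0.

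The share was also lower in deep barcodes with more UMIs of Mki67 and Top2a, genes of dividing cells, at the same depth. At 5000 to under 10000 UMIs it was 35.9% in 806 wild-type barcodes without such a UMI, 34.6% in 413 with 1 to 4 and 30.0% in 109 with 5 or more. In the humanized library it was 37.9% in 2090, 36.0% in 1134 and 32.9% in 171 barcodes. At 10000 to under 20000 UMIs the shares were 34.4%, 33.8% and 32.1% and, humanized, 35.7%, 35.0% and 34.0%. The summed shares had the same order at 20000 to under 40000 UMIs, with 33.7%, 32.3% and 31.9% and with 35.1%, 34.4% and 33.6%. The wild-type medians per barcode there, 33.3%, 31.7% and 31.7%, did not separate the last sets. This split was added after the data were seen. The UMIs of the 2 marker genes enter the same total as those of the members.

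**Figure D5:**
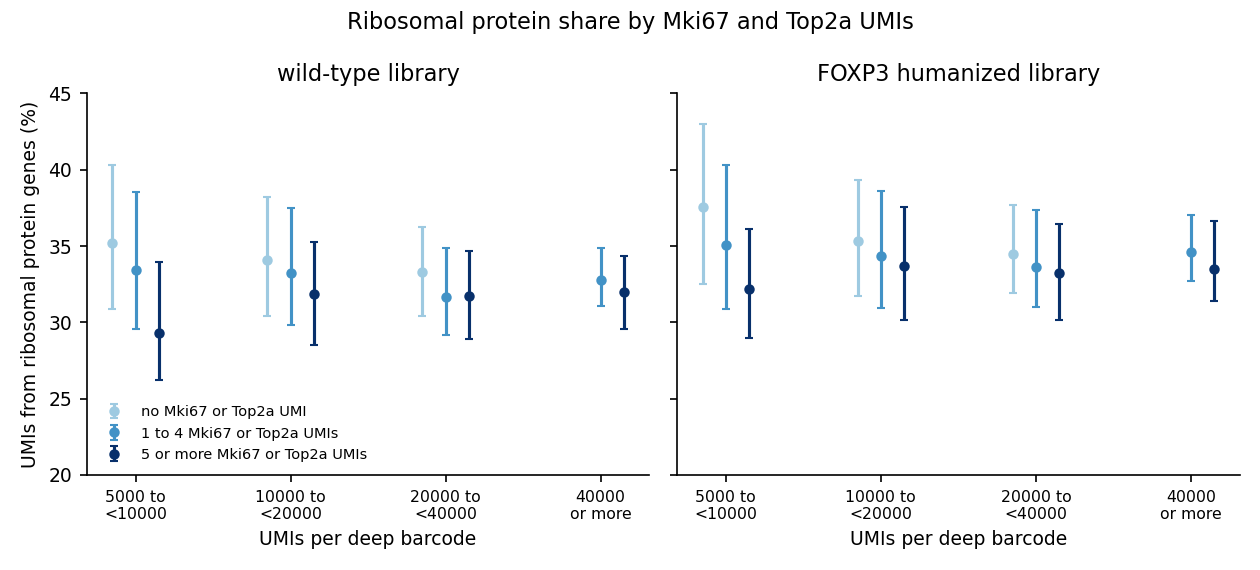
Share of UMIs from ribosomal protein genes per deep barcode (y axis, %), by depth range (x axis, UMIs per barcode) and by UMIs of Mki67 and Top2a, in each library; points are medians per barcode and bars the 25th to 75th percentiles, for sets of at least 20 barcodes. In every depth range drawn the summed share was lower in the sets with more of these UMIs, from 35.9% to 30.0% in wild-type barcodes of 5000 to under 10000 UMIs, while the bars of neighbouring sets overlap and the wild-type medians at 20000 to under 40000 UMIs (33.3%, 31.7% and 31.7%) are not all in that order.

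Most paralogs gave a small part of their pair's UMIs, and near-identical copies make their counts uncertain, since the counting could split reads between them. Rpl36al, the autosomal copy of X-linked Rpl36a, gave 39.8% and 35.6% of the pair's UMIs in T barcodes and 21.7% and 23.9% in deep barcodes. Rpl22l1, the paralog of Rpl22, gave 5.35% and 6.84% against 3.62% and 3.24%. Rps27l, a p53-induced paralog of Rps27, gave 4.36% and 2.77% against 5.72% and 5.62%, and Rpl7l1 2.35% and 1.60% of its pair with Rpl7 against 3.37% and 3.37%. Rpl39l, Rpl3l, Rps4l and Rps23rg1 had at most 13 UMIs in any class of a library. Of the 4 pseudogene symbols, Rps18-ps4 had 0 T UMIs in both libraries, against 215 and 354 deep UMIs (1.66 and 2.52 CPM). The T intervals reach 19.9 and 13.2 CPM, so these zeros cannot be told from the deep level.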

How the data were processed

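Expression was measured in 1 wild-type and 1 FOXP3 humanized cDNA library. Each deposited matrix gives UMI counts of genes by barcodes, not normalized, made with PISA 1.0 per the file headers; the submitters' processing notes name GRCm39. The method of alignment, annotation and barcode calling is not given in the sources used here. Barcodes were classed by depth and marker UMIs, and counts were summed per class and library (185429 to 140575771 UMIs). CPM carry exact Poisson intervals, shares Clopper-Pearson intervals, and ratios exact conditional intervals, all at 95%. Since PCR and free RNA are not covered, they are counting error only. A gene at 0 in a sum was set to 3 counts. Doublets were not called. Calls needed 100 UMIs over both sums and a 1.5-fold difference. The named genes are those of fixed roles and paralogs, the 5 highest and 5 lowest members of each comparison, the 5 with most and fewest UMIs, and the 2 of each other list furthest either way. The members and lists were chosen with earlier results of these data known. Starts come from RefSeq (GRCm38.p6) and coding lengths from GENCODE. Some members, and 1 split of T barcodes, are not reported here. Alternatives changed depth limits, CD3 minimum, fold, filters, scaling and centring. Scripts (Python 3.11.15, NumPy 2.4.6, SciPy 1.17.1, pandas 2.3.3) were tested on simulated counts.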

Additional observations from a re-analysis of the deposited data

Results flagged for a closer look

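For 5 members the libraries gave log2 ratios on opposite sides of 0, each with a counting interval that excluded 0. The difference between the libraries was not tested, since each genotype has 1 library. In T over shallow barcodes Rplp1, of the P-stalk, was at -0.28 (wild-type) and 0.10 (humanized). Rps27a, the ubiquitin fusion gene, was at -0.22 and 0.11, and Rps29 at -0.11 and 0.19. In the deepest over the least deep barcodes Rpl23 was at -0.067 (wild-type) and 0.026 (humanized), and Rps28 at -0.035 and 0.053. All 10 values are smaller than the 1.5-fold limit.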

How the results depend on the processing

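No paired analysis was possible because each genotype has only 1 cDNA library, and no replicate could be left out for the same reason. No setting reversed the sign of a total, while counts were compared by size only. With the depth limit at 10000 UMIs, 13 results moved and 3 did not. With centring on the median of all genes, 10 moved and 6 did not. Leaving out the barcode with most UMIs of a gene, from either sum, kept 152 of 152 named ratios within their interval. In T over deep that was a deep barcode for canonical genes, 1 of 6705 or 9671, which could hardly move a ratio. No T over deep ratio of a canonical gene was recomputed without its top T barcode. That barcode held 3.54% (wild-type) and 1.79% (humanized) of the T UMIs of Rps13. For Rpl13a it held 3.11% and 1.80%, and for Rpl31 5.41% and 3.69%. With a depth limit of 10000 UMIs the shares were 28.5% and 34.0% in T barcodes (wild-type, humanized) and 32.9% and 34.6% in deep barcodes, and the log2 ratio of T over deep was -0.20 and -0.023. Members called lower then numbered 10 and 3, and 1 was higher in the humanized library. Humanized over wild-type totals were 0.25 in T and 0.074 in deep barcodes, with 0 and 0 members called higher. With a limit of 3000 UMIs the T shares were 25.1% and 28.1%, the deep shares 33.0% and 35.0%, T over deep -0.40 and -0.31, and humanized over wild-type 0.17 in T (2 members higher) and 0.083 in deep barcodes (0 higher). At least 2 CD3 UMIs gave T shares of 25.0% and 28.8% and T over deep of -0.40 and -0.28. Without mitochondrial genes the deep shares were 33.1% and 35.1% and humanized over wild-type 0.084. Giving each barcode equal weight, T shares were 25.0% and 28.7%, deep shares 33.5% and 35.6%, T over deep -0.42 and -0.31, and humanized over wild-type 0.088 in deep barcodes. The canonical genes alone gave 25.1% and 29.1% of T and 32.8% and 34.8% of deep UMIs, with 0 called higher between the libraries in deep barcodes. Against shallow in place of deep barcodes, the totals were -0.25 and -0.018, and 8 members were higher and 9 lower in the humanized library. Of the genes with 100 UMIs, 25.4% and 19% have no T UMI and sit at the 3-count floor, so their median, 0.62 and 0.44, rests in part on them. Centred on that median, T over deep was -1.001 and -0.69, with 66 and 54 members lower and 0 and 0 higher. Centred humanized over wild-type was 0.28 in T (3 higher) and 0.30 in deep barcodes (4 higher). At a log2 limit of 0.32 in place of 1.5-fold T over deep had 8 and 8 members higher and 49 and 43 lower, humanized over wild-type 22 higher and 1 lower in T and 7 higher and 3 lower in deep barcodes, and deepest over least deep 1 lower in the wild-type library. Scaled to the members' own UMIs, a setting added after the data were seen, 12 and 8 members were higher and 12 and 10 lower in T barcodes, and 0 and 0 higher between the libraries. The small number of T UMIs limits the paralogs most, and genotype cannot be told apart from library in any of these values.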
